A study of Mus musculus with 4 samples.

Results

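The members described here are the variable (V) segments of the mouse immunoglobulin heavy chain, whose symbols start with Ighv. They were taken from the array platform's gene table wherever a transcript cluster, meaning the probes read together as a unit, carried a single gene symbol. This gave 113 segments out of 30145 genes with such a cluster, each segment having 1 cluster, so no choice between clusters was needed. The RefSeq gene table (GRCm38.p6) lists 183 Ighv symbols, and all 113 segments matched it. Of these, 110 were V segments and 3 were V segment pseudogenes, and they belonged to 15 V families, the family being the number after Ighv. A further 8 clusters named an Ighv segment together with another gene or segment and were not counted as members.

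The heavy chain locus of the mouse lies on chromosome 12. In each developing B cell in the marrow, the RAG recombinase joins 1 V segment to a D and a J segment, and the joined exon is transcribed together with the constant gene Ighm to give the heavy chain of the pre-B receptor and later of IgM. Unjoined V segments also give germline transcripts in early B cells, from promoters that bind octamer factors. V segments of a family are close copies of each other, so a cluster can take up signal from its relatives, and the split between members is uncertain.

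The study measured bone marrow RNA of mice on 4 Affymetrix arrays, 1 for each group. The groups were control, cisplatin (a platinum compound used against tumours, which damages DNA and harms blood-forming marrow), treatment with Astragalus membranaceus (the root of a legume, called astragalus here) and treatment with electro-acupuncture (needling with an electric current). Tibias were taken after 2 weeks of treatment and marrow was spun out of the bone. The design text says that marrow of 6 was mixed before extraction, without saying whether this means 6 for each group. Whether mice of the astragalus and electro-acupuncture groups had cisplatin as well is left unsaid by the labels. Strain, sex, age and dose are likewise not given in the sources used here. With 1 array per group no difference has a replicate check and no test was run. The number of arrays limits the precision. Levels are log2 values, a difference of 1.0 on this scale is 2-fold, and segments were counted at that size. Neutrophil and red cell markers had median control levels of 16.7 and 13.5, far above the level of 5.235 that is the median of all clusters and serves here as a floor. The array medians over all clusters lay between 5.15 and 5.31.

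The V segments were lowest on the cisplatin array and highest on the astragalus and electro-acupuncture arrays. Their median level was 6.60 in control, 6.27 after cisplatin, 6.91 with astragalus and 6.95 with electro-acupuncture. The cisplatin array held the lowest of the 4 values for 72 of 113 segments (63.7%), against 19.1% of all genes. Astragalus held the highest value for 48 segments (42.5%), against 22.9% of all genes, and electro-acupuncture for 46 (40.7%), against 27.8%. The control array was highest for 15 segments, against 24.9% of all genes, and cisplatin for 3, against 21.2%, and for 1 segment the highest value was shared. The lowest value lay in control for 27 segments, in astragalus for 9 and in electro-acupuncture for 5, compared with 25.4%, 33.9% and 18.5% of all genes. Among clusters above the floor, astragalus was highest for 43 of 97 segments (44.3%), against 34.7% of all genes. Electro-acupuncture was highest for 42 of them (43.3%), against 21.6%, and cisplatin was lowest for 66 (68.0%), against 21.0%. In bulk marrow, fewer cells that carry a segment and less RNA per cell cannot be told apart.

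**Figure D1:**
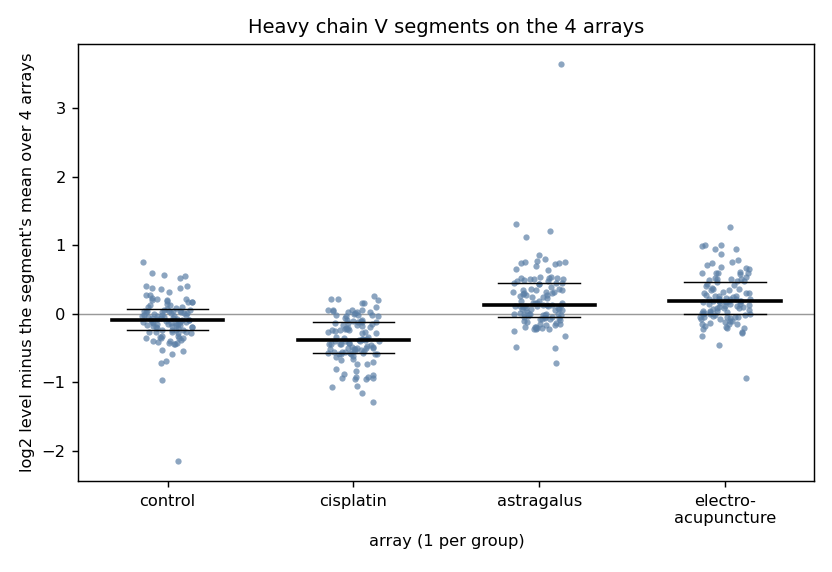
Each point is 1 of 113 heavy chain V segments, plotted as its log2 level on an array minus its own mean over the 4 arrays. Thick bars are medians and thin bars quartiles over segments, and the cisplatin points lie lowest. The highest point on the astragalus array and the lowest on the control array are both Ighv3-5.

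Most segments carried measurable signal. Averaged over the arrays, 97 segments reached or passed the floor (85.8%), compared with 56.0% of all genes, and 16 segments did not. By array, 97 segments reached the floor in control, 90 in cisplatin and 99 on each of the other arrays. The signal of different clusters depends on their probes and is not read here as relative amount. Over the 4 arrays a segment's values spanned a median of 0.90, from 0.08 in Ighv6-4 to 5.80 in Ighv3-5.

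The comparison of cisplatin with control asks how the V segments stood after the drug. Of 113 segments, 82 were lower in cisplatin and 31 higher, when 48.2% of all genes were lower and 49.3% higher. The median difference was -0.24, with quartiles of -0.61 and 0.01, and the median over all genes was 0.00. At least 2-fold lower were 7 segments (6.19%), against 0.594% of all genes, and at least 2-fold higher were 2 (1.77%), against 1.22%. Among the 97 segments above the floor the median was -0.29, against 0.01 over all genes above it. Of these segments 6.19% were at least 2-fold lower and 2.06% at least 2-fold higher, against 0.953% and 2.03% of such genes. The shift was larger in clusters of stronger signal: the 38 brightest segments had a median of -0.52 with 34 lower, the next 38 had -0.21 with 26 lower, and the 37 dimmest had -0.10 with 22 lower.

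Ighv5-6 had the lowest difference. Its level was 8.32 in control, 6.71 after cisplatin, 7.83 with astragalus and 8.17 with electro-acupuncture, which is 3.05-fold lower in cisplatin than in control. Cisplatin alone stood apart, more than 1 log2 unit under each of the other arrays. Ighv10-3 was at 8.78 in control, 7.48 after cisplatin, 8.35 with astragalus and 8.86 with electro-acupuncture, a difference of 2.46-fold between cisplatin and control. Ighv1-79 was at 6.19, 4.93, 6.14 and 6.21 in the same order of arrays, so that only the cisplatin value fell under the floor. Ighv1-61 had the same shape, at 7.13 in control, 6.08 after cisplatin, 7.46 with astragalus and 7.13 with electro-acupuncture. In these 4 segments the astragalus and electro-acupuncture values lay within 0.5 of the control value.

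Ighv13-2 differed from them. It was at 6.21 in control, 5.07 after cisplatin, 5.30 with astragalus and 5.90 with electro-acupuncture, so astragalus stayed near cisplatin, whose value was under the floor. Ighv6-7 was just short of 2-fold between control and cisplatin, at 6.14 and 5.16, and its astragalus value of 4.87 was the lowest of the 4. The latter 2 values were under the floor. Ighv1-78, also at least 2-fold lower in cisplatin, was below the floor on all 4 arrays, with 4.93 in control as its highest value.

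Against the general direction, 2 segments were at least 2-fold higher in cisplatin than in control. Ighv1-77 was at 5.63 in control, 6.86 after cisplatin, 7.12 with astragalus and 6.79 with electro-acupuncture. Its control value is the one that stands apart from the rest. Ighv3-5, the other, was at 5.10 in control, 6.69 after cisplatin, 10.90 with astragalus and 6.32 with electro-acupuncture. The astragalus value is 23.9-fold above electro-acupuncture and 18.5-fold above cisplatin, and no other member spanned as much. The control value lies under the floor, so no fold against it is given. The other 5 members of V family 3 spanned no such gap: Ighv3-6 ran from 7.74 in control to 8.62 in astragalus, and Ighv3-4, below the floor in mean, was at 4.57 in control and 5.39 in astragalus. Among segments above the floor, smaller positive differences were seen in Ighv1-49 (5.09 in control and 5.70 in cisplatin), Ighv3-6 (7.74 and 8.20), Ighv8-9 (5.89 and 6.22) and Ighv1-84 (7.28 and 7.53).

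**Figure D2:**
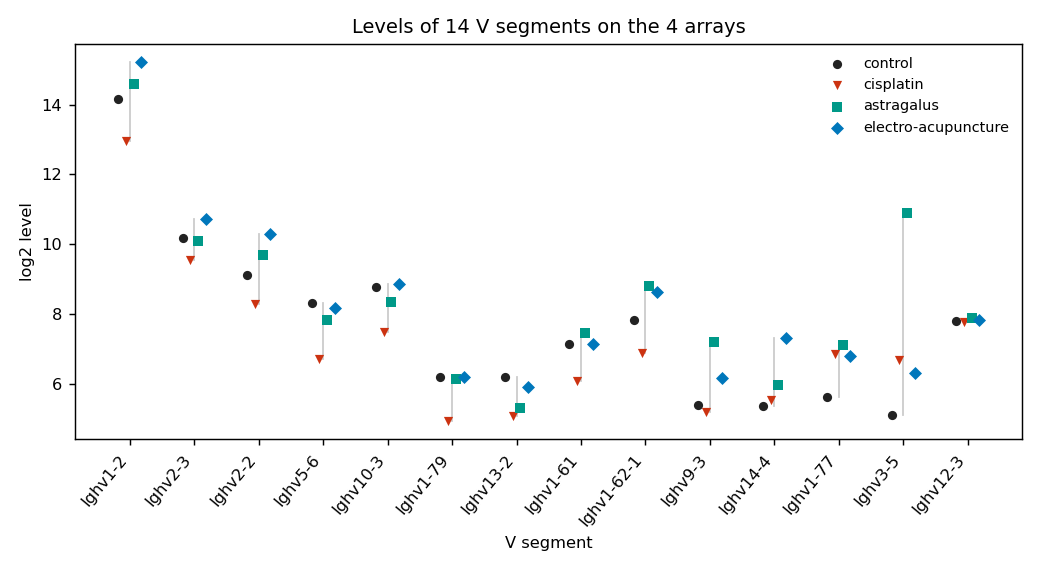
Log2 levels of 14 V segments on each of the 4 arrays, with a grey line over the range of each segment. Cisplatin (triangles) is lowest for Ighv5-6, Ighv10-3, Ighv1-79 and Ighv1-61, the astragalus value of Ighv3-5 is at 10.90 while its other values lie between 5.10 and 6.69, and the 4 values of Ighv12-3 lie within 0.14 of each other.

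The cluster with the strongest signal was Ighv1-2, which RefSeq lists as a V segment pseudogene. Its level was 14.16 in control, 12.95 after cisplatin, 14.59 with astragalus and 15.22 with electro-acupuncture. Cisplatin was 2.31-fold under control and electro-acupuncture 4.82-fold above cisplatin. A sum of linear signals over the 113 segments is therefore swayed by this cluster, and ratios of the sum between arrays are given with and without it. The summed signal in cisplatin was 0.596 times that of control with Ighv1-2 and 0.749 times without it. In astragalus the ratio to control was 1.31 with it and 1.28 without it, and in electro-acupuncture 1.67 and 1.28. The summed signal of all genes was 117615761 in control, 134809691 after cisplatin, 150249714 with astragalus and 138860695 with electro-acupuncture. A sum above control is therefore not particular to the V segments. The other pseudogenes behaved differently. Ighv2-1 was at 7.37 in control and between 6.97 and 7.07 on the other arrays, and Ighv1-30 ran from 5.21 in electro-acupuncture to 6.20 in astragalus.

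The next brightest clusters were mostly of V family 2. Ighv2-3 was at 10.17 in control, 9.55 after cisplatin, 10.10 with astragalus and 10.73 with electro-acupuncture. Ighv10-1 followed the same order, at 9.97, 9.57, 9.75 and 10.56. Ighv2-4 was at 9.32 in control, 8.47 after cisplatin, 9.73 with astragalus and 10.16 with electro-acupuncture, and Ighv2-2 at 9.11, 8.28, 9.70 and 10.29. These 4 segments were lowest in cisplatin and highest in electro-acupuncture. Ighv2-5 instead was highest in control, at 10.35, with 9.38 after cisplatin, 9.90 with astragalus and 9.68 with electro-acupuncture. Ighv2-6-8 was lowest in control, at 9.32, with 9.40 after cisplatin, 9.82 with astragalus and 9.46 with electro-acupuncture. Ighv2-9 likewise had its lowest value, 8.97, in control.

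The comparisons of astragalus and of electro-acupuncture with cisplatin ask where the segments stood in marrow after each of these treatments relative to the drug. Both use the same cisplatin array, so their agreement is no independent evidence. In astragalus 98 of 113 segments were higher than in cisplatin and 14 lower, with a median difference of 0.42, when 43.7% of all genes were higher and 54.2% lower and their median was -0.03. Above the floor 87 of 97 segments (89.7%) were higher, against 56.8% of all genes. At least 2-fold higher were 28 segments (24.8%), against 1.16% of all genes, and none was 2-fold lower, against 1.29%. In electro-acupuncture 97 segments were higher and 16 lower, with a median of 0.50 against 0.02 over all genes, of which 53.5% were higher and 44.0% lower. Here 31 segments (27.4%) were at least 2-fold higher, against 0.829% of all genes, and none was 2-fold lower, against 1.57%.

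Besides Ighv3-5, the segments above the floor in mean with the largest differences between astragalus and cisplatin were Ighv9-3, Ighv1-62-1 and Ighv1-83. Among those below the floor Ighv1-82 had a difference of 1.94. Ighv9-3 was at 5.41 in control, 5.19 after cisplatin, 7.20 with astragalus and 6.18 with electro-acupuncture, the cisplatin value being under the floor. Ighv1-62-1 was at 7.82, 6.88, 8.80 and 8.62 in the same order, and Ighv1-83 at 5.83, 5.89, 7.67 and 6.81. In these 3 segments astragalus was the highest array and electro-acupuncture the next. The lowest differences above the floor were those of Ighv1-58 (6.80 in cisplatin and 6.29 in astragalus), Ighv6-7 (5.16 and 4.87), Ighv8-14 (5.61 and 5.41) and Ighv8-2 (6.04 and 5.87), none of them near 2-fold. Ighv1-16, below the floor, had a difference of -0.47.

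Among segments above the floor the largest differences between electro-acupuncture and cisplatin after Ighv1-2 were those of Ighv2-2 (4.03-fold), Ighv14-4 and Ighv5-4 (each 3.43-fold). Ighv14-4 was at 5.36 in control, 5.53 after cisplatin, 5.97 with astragalus and 7.31 with electro-acupuncture, and only the last value stood apart. Ighv5-4 was at 7.95 in control, 7.34 after cisplatin, 8.31 with astragalus and 9.12 with electro-acupuncture. At the low end of the same segments, Ighv3-6 was at 8.20 in cisplatin and 7.81 in electro-acupuncture, Ighv1-30 at 5.57 and 5.21, and Ighv11-1 at 6.77 and 6.51. Ighv3-5 was lower by 0.37, the opposite of its difference in astragalus.

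Set against control, both arrays were moderately higher. Astragalus was higher than control for 78 of 113 segments, with a median of 0.20, when 42.6% of all genes were higher and 55.5% lower. The number was 90 of 113 when each array was centred on its own median, since the astragalus array has the lowest overall median and centring lifts the median of all genes from -0.04 to 0.08. Of all genes above the floor, 55.5% were higher than control and 42.6% lower, and 69 of the 97 segments above it (71.1%) were higher. At least 2-fold higher were 9 segments (7.96%), against 3.53% of all genes, and 1 segment, Ighv6-7, was at least 2-fold lower (0.885%, against 1.68% of all genes). Counting only clusters above the floor, 8 segments (8.25%) were at least 2-fold higher, against 6.21% of all genes, so the shares were closer. Among those higher and above the floor were Ighv1-83 (3.58-fold), Ighv9-3 (3.46-fold) and Ighv1-77 (2.81-fold). Of the segments above the floor, Ighv13-2, Ighv8-13 and Ighv1-58 came next and were lower by 0.91, 0.69 and 0.68.

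Electro-acupuncture was higher than control for 83 segments, with a median of 0.23, when 53.9% of all genes were higher and 43.8% lower. At least 2-fold higher were 11 segments (9.73%), against 2.45% of all genes, and none was 2-fold lower, against 1.87%. Above the floor the share at least 2-fold higher was 9.28% of segments and 4.19% of all genes. Among segments above the floor in mean, Ighv14-4 (3.86-fold), Ighv14-1 (2.48-fold) and Ighv2-2 (2.27-fold) were among the highest, as was Ighv3-5, whose control value is under the floor. Below the floor, Ighv1-62-2 and Ighv1-71, both among the 11, each had a difference of 1.40 and had equal values on every array. At the other end, above the floor, Ighv2-5, Ighv1-52, Ighv1-50 and Ighv1-30 were lower by 0.67, 0.55, 0.49 and 0.46.

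Between astragalus and electro-acupuncture the segments split about evenly. In astragalus 55 were higher and 57 lower, and the median was -0.02, when 42.3% of all genes were higher and 55.7% lower. Restricted to clusters above the floor, 49 of 97 segments (50.5%) were higher, with a median of 0.03. Of all genes above the floor 57.8% were higher and 39.9% lower, with a median of 0.06. After centring 68 of all 113 segments were higher and 44 lower, and with the loess trend on level removed 47 were higher and 66 lower, so the direction depends on the scaling. At least 2-fold higher in astragalus were 4 segments (3.54%), against 0.391% of all genes, and at least 2-fold lower 5 (4.42%), against 0.607%. After Ighv3-5, the higher segments above the floor were Ighv9-3 (2.03-fold) and Ighv1-55 (9.34 in astragalus and 8.34 in electro-acupuncture). Those lower were Ighv14-4 (2.53-fold), Ighv8-13 (2.45-fold) and Ighv6-7, whose astragalus value of 4.87 is under the floor. Ighv1-62-2 and Ighv1-71, below the floor in mean and lower in astragalus too, had equal values on every array, at 4.07, 4.08, 4.24 and 5.47, so which of them gave the signal is unknown. Both enter the 2-fold counts here and those of electro-acupuncture with cisplatin and with control, so the same values are counted for each.

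V families were compared through their differences, not their levels. In V family 1, the largest with 61 segments, 47 were lower in cisplatin than in control, with a median of -0.24. In V family 2, 6 of 8 were lower (median -0.56), and in V family 5, 7 of 9 (median -0.53). In V family 10 both segments were lower, by 0.40 and 1.30. V family 8 showed no common direction, with 4 segments lower and 4 higher in cisplatin and a median of 0.01. Above the floor were 7 of its 8 segments, but their signal was weaker. The median of segment means was 6.075 there, and 9.38, 7.76 and 9.165 in V families 2, 5 and 10. The cisplatin shift was larger in clusters of stronger signal, so family and signal strength are not separated here. In V families 11 and 14 the medians were 0.04 and -0.02. No difference between families was tested, because segments are not replicates of a condition.

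Several V families had medians at or above 2-fold between electro-acupuncture and cisplatin, namely 14 (1.22), 10 (1.19), 4 (1.14) and 5 (1.01). V family 10 holds 2 segments, higher by 0.99 and 1.38, and V family 4 holds 1. All 4 segments of V family 14 were more than 2-fold higher in electro-acupuncture than in cisplatin, by 1.22 to 1.78 on the log2 scale, and each had its highest value in electro-acupuncture. Their differences between astragalus and cisplatin were smaller, at 0.27 to 0.82. Besides Ighv14-4, Ighv14-1 was at 6.56 in control, 6.65 after cisplatin, 6.92 with astragalus and 7.87 with electro-acupuncture. Ighv14-2 was at 6.15, 5.77, 6.46 and 6.99 in that order, and Ighv14-3 at 5.44, 5.31, 6.13 and 6.53. In V family 5 all 9 segments were higher in electro-acupuncture than in cisplatin, 5 of them at least 2-fold, with a median of 1.01 against 0.39 in astragalus. V family 8 had medians of -0.02 for astragalus and 0.19 for electro-acupuncture, and 1 of its segments, Ighv8-13, was at least 2-fold higher in electro-acupuncture (6.09 in cisplatin and 7.37). V family 9 had the highest astragalus median, 1.46, but holds 2 segments, Ighv9-3 and Ighv9-4, of which the latter was at 6.82 in control, 6.54 after cisplatin, 7.44 with astragalus and 7.13 with electro-acupuncture.

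**Figure D3:**
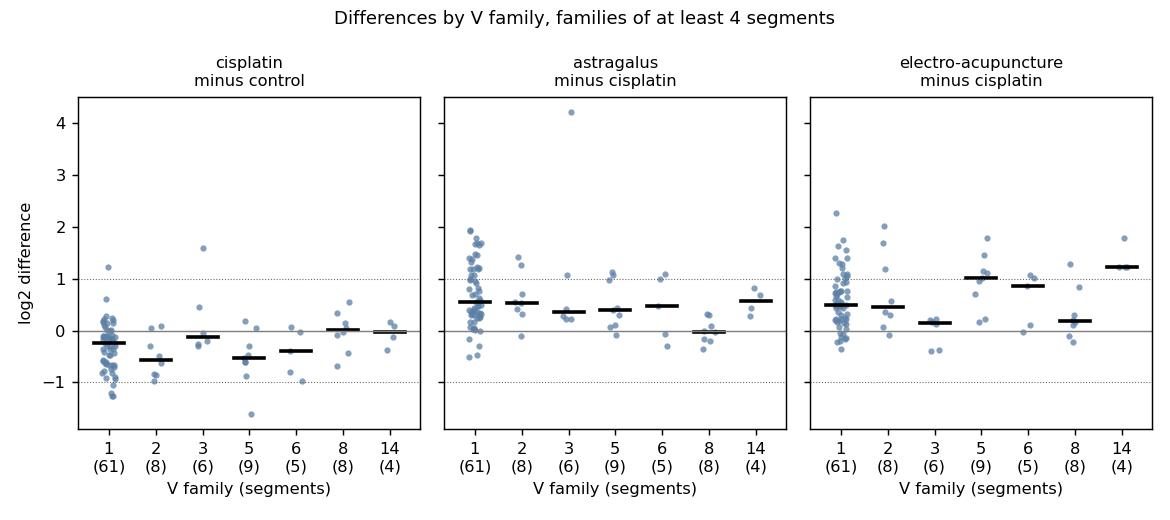
Log2 differences of the segments of 7 V families, those with at least 4 segments, for cisplatin minus control, astragalus minus cisplatin and electro-acupuncture minus cisplatin. Points are segments, bars are family medians and dotted lines mark 2-fold. The medians of V family 8 are 0.01, -0.02 and 0.19 in the 3 panels, and all 4 points of V family 14 lie above 1 in the last.

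Of the families with a single segment, Ighv12-3 was at 7.79 in control, 7.76 after cisplatin, 7.90 with astragalus and 7.82 with electro-acupuncture. Ighv4-1 was at 8.57, 8.50, 8.85 and 9.64 in the same order, so that it was apart on the electro-acupuncture array alone. Ighv15-2 and Ighv16-1 were below the floor, with highest values of 4.48 and 4.62. In the small families, Ighv6-3 was at 8.84 in control, 8.04 after cisplatin, 8.51 with astragalus and 9.11 with electro-acupuncture, Ighv8-5 at 6.82, 6.39, 6.71 and 7.22, and Ighv11-1 at 6.70, 6.77, 6.96 and 6.51. The first 2 were lowest in cisplatin and highest in electro-acupuncture, and Ighv11-1 was not.

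Position along the locus was taken from the order of the segments in RefSeq, counted from the D and J segments and divided into 4 stretches of 28 or 29 segments. Segments near the D and J segments belong mainly to V families 2 and 5, and V family 1 fills most of the far part. Cisplatin was lower than control in each stretch: the median was -0.30 in the nearest, -0.22 and -0.44 in the middle ones and -0.11 in the farthest, with 21 of 29, 20 of 28, 23 of 28 and 18 of 28 segments lower. The medians of astragalus minus cisplatin were 0.42, 0.45, 0.56 and 0.34 from nearest to farthest. Those of electro-acupuncture minus cisplatin were 0.95, 0.48, 0.31 and 0.53, and 13 of the 29 nearest segments were at least 2-fold higher, compared with 7, 4 and 7 of 28 in the others. Over all 113 segments the rank correlation of order with these differences was 0.08, 0.00 and -0.09, so the differences held no steady trend along the locus. These are descriptions of segments that share arrays and family sequence.

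**Figure D4:**
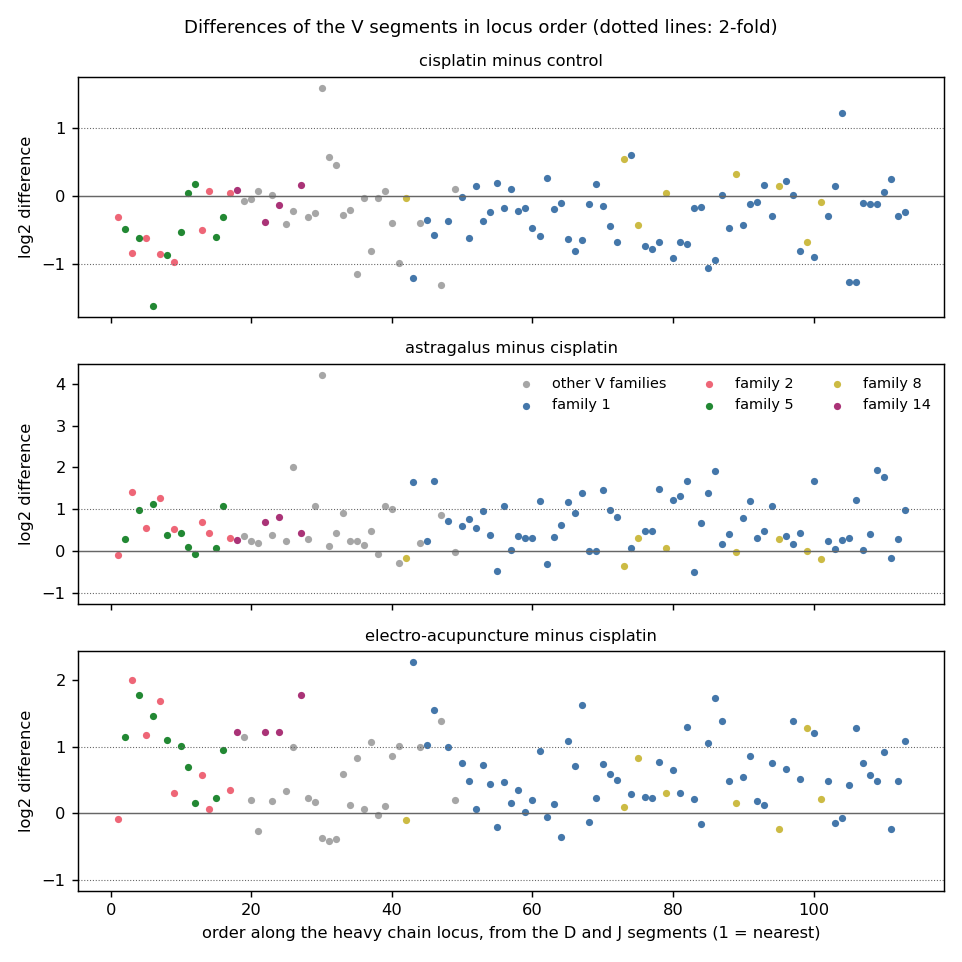
Log2 differences of the 113 segments in their order along the heavy chain locus, 1 being nearest to the D and J segments, for the 3 comparisons named above the panels. Colours mark V families and dotted lines 2-fold. Most points lie under 0 in the first panel and over 0 in the others along the whole order, and the point at 4.21 in the second panel is Ighv3-5.

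Other genes of the heavy chain and of the B lineage did not all follow the segments. Their counts in cisplatin stand beside the shares over all genes, 48.2% lower and 0.594% at least 2-fold lower. The gene lists were chosen with earlier results of these data known, so the counts are descriptions only. Among the 8 heavy chain constant genes listed, 4 had a cluster of their own. Ighm, the constant gene of IgM, was at 14.99 in control, 14.83 after cisplatin, 15.78 with astragalus and 14.97 with electro-acupuncture, so only astragalus was apart, 1.93-fold above cisplatin. Ighg1 (5.71, 5.54, 5.99 and 5.60 in that order) and Ighg2b (5.59, 5.95, 6.15 and 6.15), genes of switched IgG isotypes, were close to the floor. Ighe, the gene of IgE, was below it, between 4.53 and 4.89. None of the 4 differed at least 2-fold between any treated array and control.

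Genes of the B cell receptor and of early B cells were lower in cisplatin in 9 of 12 cases and higher in 1, 7 of the 9 at least 2-fold, with a median of -1.32. Cd24a, equal on all arrays at 19.66, is near the ceiling of the scale. Cecr2, a chromatin factor, was at 10.87 in control, 9.05 after cisplatin, 9.72 with astragalus and 9.30 with electro-acupuncture. The transcription factor genes Sox4 (9.54, 8.07, 8.56 and 8.54) and Bach2 (8.63, 7.17, 7.58 and 7.27) and the signalling chain gene Cd79a (9.20, 7.84, 8.20 and 8.29) had the same order of control above the rest. Against control this list had medians of -0.83 in astragalus and -1.05 in electro-acupuncture, whereas the V segments had 0.20 and 0.23 on the same arrays. The 12 mature B cell genes were all lower than control on each of the other 3 arrays, with medians of -0.54 after cisplatin, -0.59 with astragalus and -0.69 with electro-acupuncture. Of all genes above the floor, 46.6%, 42.6% and 44.0% were lower than control on these arrays, in the same order. Spib, a transcription factor gene, was at 9.03 in control, 7.48 after cisplatin, 7.86 with astragalus and 7.42 with electro-acupuncture. Fcrla, an Fc receptor-like gene, was at 8.59, 7.18, 7.96 and 7.82 in that order, and the kinase gene Blk at 6.86, 5.85, 6.14 and 6.00. Cd72, a B cell surface lectin, was at 9.52 in control, 8.11 after cisplatin, 8.16 with astragalus and 7.87 with electro-acupuncture. On the astragalus and electro-acupuncture arrays the V segments therefore had medians above control while these lists had medians below it. The difference between the lists was not tested.

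Regulators of the heavy chain locus and of V promoters were lower in cisplatin in 10 of 13 cases, with a median of -0.50. Il7r, the receptor through which early B cells receive interleukin 7, was at 10.81 in control, 8.76 after cisplatin, 9.47 with astragalus and 9.05 with electro-acupuncture. Ebf1, a transcription factor that sets B cell fate, was at 10.40, 8.99, 9.39 and 9.19. Pou2af1, the coactivator of octamer factors at V promoters, was at 7.24 in control, 6.16 after cisplatin, 6.82 with astragalus and 7.11 with electro-acupuncture. Of Il7r, Ebf1 and Pou2af1, the last alone lay within 0.2 of control in electro-acupuncture. Ezh2, a histone methyltransferase involved in V segment use, was at 12.50, 11.57, 12.45 and 11.97, and its astragalus value was close to control. Against control the list's medians were -0.05 in astragalus and -0.31 in electro-acupuncture.

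Genes of V(D)J recombination and end joining were lower in cisplatin than in control in 8 of 9 cases, with a median of -0.21 and none at 2-fold. Lig4, the ligase of end joining, was at 6.71 in control, 6.01 after cisplatin, 6.42 with astragalus and 6.33 with electro-acupuncture. Rag2, the recombinase subunit, was at 5.66, 5.13, 5.53 and 5.93, and Xrcc6, the Ku70 gene, at 7.55, 7.09, 7.64 and 7.36. Xrcc5, the gene of its partner Ku80, was the one higher in cisplatin, at 7.16, 7.58, 7.75 and 7.41. All 9 were higher in astragalus than in cisplatin, with a median of 0.40, and 7 in electro-acupuncture, with a median of 0.25. Of all genes above the floor, 56.8% were higher in astragalus than in cisplatin and 52.3% in electro-acupuncture. Dntt, which adds bases at the joints, was at 6.51 in control, 6.34 after cisplatin, 6.75 with astragalus and 7.43 with electro-acupuncture, and was the single gene of the list to differ at least 2-fold. Among genes of the light and surrogate light chains, 4 had clusters of their own. Vpreb3 was at 7.79, 6.69, 7.20 and 7.26, while Vpreb1 and Vpreb2 differed by less than 0.5 on all arrays.

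Plasma cells make the most heavy chain RNA per cell, and 11 of the 12 genes listed for them were measured. Their median difference between cisplatin and control was 0.03, with 4 lower and 7 higher. Irf4 (7.48 in control, 6.09 after cisplatin, 6.71 with astragalus and 6.22 with electro-acupuncture) and Slamf7 (8.14, 6.77, 7.21 and 7.16) were at least 2-fold lower in cisplatin, and both are expressed outside plasma cells too. Mzb1 was at 6.48, 5.79, 6.28 and 6.32 in the same order, and Tnfrsf17, near the floor, at 5.29, 5.69, 5.03 and 5.36. Sdc1, the plasma cell surface proteoglycan, was near the floor at 5.45, 5.49, 5.54 and 5.70. Jchain had no cluster of its own. The plasma cell medians against control were 0.01 in astragalus and 0.06 in electro-acupuncture. The summed linear signal of the list ran from 2947 in control to 4154 in astragalus. Its strongest cluster, Ell2, an elongation factor gene, was at 10.68 in control, 10.97 after cisplatin, 11.55 with astragalus and 11.09 with electro-acupuncture, and sways that sum. Prdm1 and Fkbp11 were below the floor on every array. The part of these cells in the V segment differences was not tested.

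**Figure D5:**
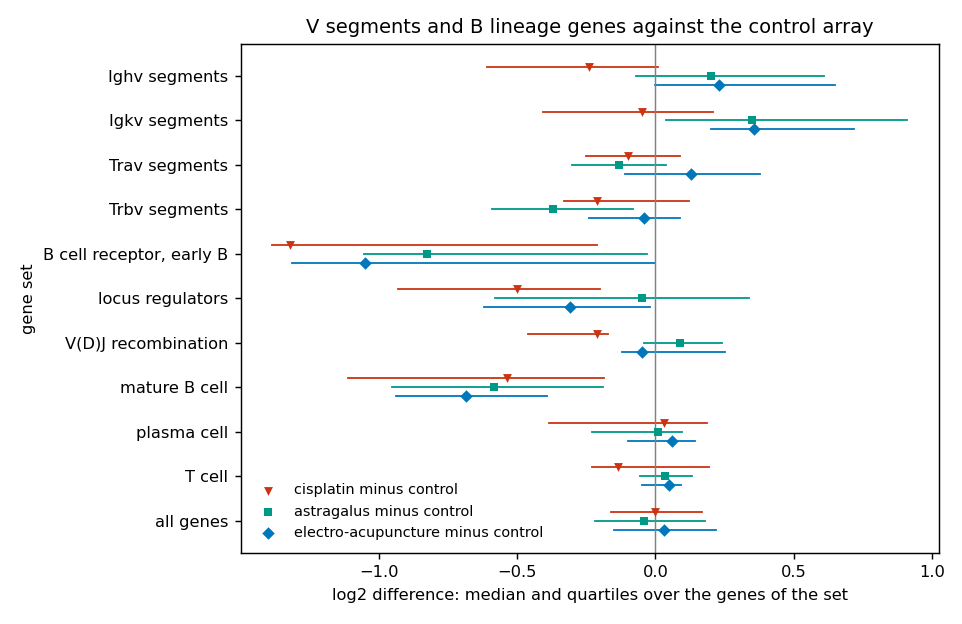
Median log2 difference from the control array, with quartiles over genes as lines, for V segments of 4 antigen receptor chains, 6 gene lists and all genes. In astragalus and electro-acupuncture the Ighv and Igkv medians lie above 0 while those of the early and mature B cell lists lie below it.

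V segments of other receptors give a comparison of like genes. The 86 kappa light chain V segments (Igkv) had a median of -0.05 between cisplatin and control, 0.45 between astragalus and cisplatin and 0.55 between electro-acupuncture and cisplatin. Cisplatin was the lowest array for 46 of them and control for 29, compared with 72 and 27 of the 113 heavy chain segments. Of all genes, 19.1% were lowest in cisplatin and 25.4% in control. The 85 T cell receptor alpha V segments (Trav), of which 42 were above the floor, had medians of -0.10, 0.01 and 0.27 in the same comparisons. The 21 beta V segments (Trbv) had -0.21, -0.08 and 0.06. For the 42 Trav segments above the floor the medians were -0.18, 0.04 and 0.40. Of these 78.6% were lower in cisplatin than in control, against 77.3% of Ighv segments and 46.6% of all genes above the floor. In electro-acupuncture 85.7% were higher than in cisplatin, against 88.7% and 52.3%. The T cell list had a median of 0.21 between electro-acupuncture and cisplatin and 0.02 between astragalus and cisplatin, with Cd4 below the floor on every array. Trav segments thus lay higher on the electro-acupuncture array as well, with 45 of 85 highest there (52.9%). The number was 46 of 113 heavy chain segments (40.7%), and the share of all genes was 27.8%.

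Marker genes of other marrow cells differed between the same arrays. All 10 genes of bone, stroma and fat were at least 2-fold higher in cisplatin than in control, against 1.22% of all genes, with a median of 2.04. This list was chosen with earlier results of these data known, so the count is a description only. Their summed linear signal was 4146 in control, 43892 after cisplatin, 20526 with astragalus and 16525 with electro-acupuncture. The bone genes Bglap (8.96, 13.68, 11.95 and 10.45 in that order) and Bglap2 (8.47, 14.09, 12.23 and 10.53) sway that sum. Against cisplatin, 7 of the 10 genes were lower in astragalus, 5 of them at least 2-fold, with a median of -0.925. In electro-acupuncture 6 were lower, all 6 at least 2-fold, with a median of -1.225. Of all genes, 1.29% and 1.57% were at least 2-fold lower in these comparisons. The other 3 genes in astragalus and 4 in electro-acupuncture were higher, among them the stromal chemokine gene Cxcl12 at 10.91, 12.46, 12.95 and 13.28. The lowest value of any of the 10 genes was 6.08, so none was below the floor. Red cell genes had a median of -0.29 in cisplatin against control. All 9 were higher in astragalus than in cisplatin, against 56.8% of all genes above the floor, with a median of 0.80. In electro-acupuncture 8 were higher than in cisplatin, against 52.3% of such genes, with a median of 0.20. Neutrophil genes had medians of 0.04, 0.56 and 0.06 in these comparisons, but S100a8 and S100a9 are at the ceiling on all arrays and cannot show a difference. Mpo, a granule enzyme gene of early neutrophils, was at 11.70 in control, 12.80 after cisplatin, 13.75 with astragalus and 13.25 with electro-acupuncture, and Elane at 10.34, 11.20, 11.93 and 11.70. The part of these cells in the V segment differences was not tested.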

How the data were processed

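Each array has a deposited log2 value for every transcript cluster. Affymetrix Expression Console produced these values, per the submitters' processing notes. For its version, its summary method and the genome build, the sources used here give nothing. That the values are log2 was judged from their range, which stops at 19.93 on each array, and no V segment reached that ceiling. Per the labels' protocols, 6 ug of total RNA went into each biotin labelling.

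Of 65956 clusters, 30604 carried 1 symbol in the platform's gene table, 2146 carried several and 33206 were unnamed here. For a gene with several clusters, the one of highest mean was used. All segments entered each comparison without a filter. The floor of 5.235 and the 75th percentile, 6.63, of the cluster means over 4 arrays served as alternatives. Comparisons are differences of log2 values between 2 arrays, summarised with pandas 2.3.3 under Python 3.11.15 and tested on simulated data. Other alternatives were quantile normalization, a loess trend on level (statsmodels 0.14.6), median centring, the mean of a gene's clusters, updated symbols, a 1.5-fold size and leaving out genes at the ceiling.

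The segments and the 11 gene lists were chosen with earlier results of these data known. Named segments are the 8 of highest mean, the brightest of each V family, the 6 with the largest differences in each direction for cisplatin with control and 4 for each other comparison, among segments above the floor. Heavy chain constant genes were all named, and up to 4 genes of other lists by the size of their difference between cisplatin and control. Ighv2-1, Ighv1-78, Ighv3-4, Ighv6-4, Ighv1-62-2, Ighv1-71, Ighv14-2, Ighv14-3, Ighv1-82, Ighv1-16, Dntt, Cd24a, Cd4, Sdc1, Prdm1, Fkbp11, Ell2, Cxcl12, S100a8 and S100a9 were named after their values were seen. RefSeq served for names, gene types and order only. Sequences of the segments were not used here.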

Additional observations from a re-analysis of the deposited data

How the results depend on the processing

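Of 156 values recomputed under other settings, 128 stayed close to the reported value and 28 moved. Those that stayed close include all values under the mean of clusters and the ceiling, settings that could not change them. None of the medians of 0.1 or more changed sign. A median counted as moved at a shift of 0.1 or more, a count at over 1.5 times. Over the alternatives the median of the V segments ran from -0.40 to -0.21 for cisplatin with control, 0.31 to 0.53 for astragalus with cisplatin, 0.45 to 0.72 for electro-acupuncture with cisplatin, 0.19 to 0.32 for astragalus with control, 0.19 to 0.29 for electro-acupuncture with control and -0.05 to 0.14 for astragalus with electro-acupuncture. At a mean level in the 75th percentile or above, which leaves 60 segments, the medians were -0.40 for cisplatin with control and 0.72 for electro-acupuncture with cisplatin, and the counts at 2-fold were 4 lower and 1 higher, 18 higher (astragalus with cisplatin), 20 higher (electro-acupuncture with cisplatin), 0 lower and 3 higher (astragalus with control), 6 higher (electro-acupuncture with control), and 0 lower and 2 higher (astragalus with electro-acupuncture). Fewer segments enter there. For these counts, and for those at 1.5-fold that follow, the matching share of all genes was not computed. They are therefore not set against all genes. At 1.5-fold the counts were 31 lower for cisplatin with control, 45 higher for astragalus with cisplatin, 52 higher for electro-acupuncture with cisplatin, 5 lower and 33 higher for astragalus with control, 2 lower and 34 higher for electro-acupuncture with control, and 20 lower and 13 higher for astragalus with electro-acupuncture. Loess gave a median of 0.31 for astragalus with cisplatin. For astragalus with electro-acupuncture the segments at least 2-fold lower were 10 with loess, 9 with quantile normalization and 3 above the floor. The last is 3.09% of segments, against 0.805% of all genes above the floor. Median centring gave medians of 0.53, 0.32 and 0.14 for astragalus with cisplatin, control and electro-acupuncture, and 9 segments at least 2-fold higher in the last. For the counts under loess, quantile normalization and centring the share of all genes was not computed. Updated symbols moved no value. The mean of clusters and the ceiling could move none, because each segment has 1 cluster and no segment reached the ceiling. Leaving out a replicate was not possible with 1 array per group. No paired analysis was possible because each group has 1 array and no value comes from a test. Signal near the floor limits what the 16 segments below it can show.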

Other observations

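Clusters that name an Ighv segment together with another symbol were kept out of the counts. The cluster of Ighv9-1 and Ighv9-2 was at 7.18 in control, 6.44 after cisplatin, 7.47 with astragalus and 7.20 with electro-acupuncture. The cluster of Ighm and Ighv2-6 was at 9.57, 8.96, 9.17 and 9.97 in the same order, and that of Ighm and Ighv2-7 at 9.04, 8.72, 9.10 and 9.11. In these 3 clusters cisplatin was the lowest array. The clusters of Ighv8-8 with Ighv8-11 (6.27, 6.28, 6.82 and 6.35) and of Ighv5-12 with Ighv5-15 (6.98, 6.97, 6.77 and 6.96) held cisplatin within 0.1 of control. Of the clusters that name Igh-VS107 too, the one with Ighv7-4 was at 5.81, 5.63, 5.75 and 5.48 and the one with Ighv7-2 was between 4.96 and 5.30. The cluster that covers J segments, Ighd, Ighg2c and Igha also names Ighv14-2, which has a cluster of its own too, and was lowest in control, at 8.40, with 8.61 after cisplatin, 8.93 with astragalus and 8.74 with electro-acupuncture.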
